A study of Mus musculus with 24 samples.

Results

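Matrix proteases and their inhibitors were followed in mouse lung tumours driven by mutant forms of the epidermal growth factor receptor (EGFR). The members were the genes named Mmp, Adam, Adamts or Timp with a number, each represented by the annotated probe set with the highest mean over 24 arrays. This gave 65 of the 18193 genes measured, made up of 18 matrix metalloproteinases (MMPs), 28 ADAMs, 15 ADAMTS proteases and 4 tissue inhibitors of metalloproteinases (TIMPs). Of the 14 tumours, 4 were L858R, 5 were L858R+T790M and 5 were T790M, named for the EGFR change in the transgene. L858R is known to activate the receptor kinase, and T790M to make it resistant to EGFR inhibitors. They were nodules visible by eye, cut from bitransgenic mice that had eaten a doxycycline diet for 3 to 6 months, and a dissected nodule holds stroma, vessels and immune cells beside tumour cells. The driver transgene is written C in the labels, which do not give its promoter or the cell type it is active in, nor the animals' age or sex. The 10 normal lungs came from littermates with none or 1 of the transgenes, also on doxycycline, and formed 2 sets of 5 by strain label, called FVB mixed normal lungs and FVB normal lungs here. L858R tumours share the strain label FVB mixed with the first set, and the other tumours share the label FVB with the second. Tissue is labelled lung throughout, and 7 alveolar type 2 markers had a mean log2 level per array of 13.93 to 14.08 in L858R, 13.66 to 14.02 in L858R+T790M and 13.62 to 14.07 in T790M tumours, 13.49 to 13.63 in FVB mixed and 13.48 to 13.57 in FVB normal lungs.

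These proteins decide how the material around cells is built and cut. MMPs are zinc enzymes, made as inactive precursors, that cut collagens, elastin and other matrix proteins. ADAMs sit in the cell membrane and release the outer parts of other membrane proteins, among them the ligands that activate EGFR. ADAMTS proteases are secreted and cut large proteoglycans such as aggrecan and versican or mature procollagens, and TIMPs bind the active sites of these enzymes and hold them in check. In the lung, macrophages and neutrophils are known sources of several MMPs, while fibroblasts supply many ADAMTS proteases and TIMPs.

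Levels are the deposited log2 values, so a difference of 1 is 2-fold. Differences are given ± SE from 1 limma fit over all 24 arrays, and a gene was called where its p, adjusted by Benjamini-Hochberg over all 18193 genes, was under 0.05. The labels do not say that each array is a separate mouse, so the p-values rest on the spread among these samples, which may be technical, and L858R+T790M and T790M tumours were set against the same FVB normal lungs. In bulk tissue, fewer cells of a type and less RNA per cell cannot be told apart.

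The family as a whole moved about as often as other genes. In L858R tumours 10 members were higher and 16 lower than in FVB mixed normal lungs, while 41.4% of all genes were called in that comparison, 23.3% higher and 18.1% lower. In L858R+T790M tumours 12 members were higher and 9 lower than in FVB normal lungs, with 36.2% of all genes called, 20.2% higher and 16.1% lower. In T790M tumours 8 members were higher and 18 lower, with 39.8% of all genes called, 21.9% higher and 17.9% lower. The median difference over the members was 0.04 in L858R, 0.03 in L858R+T790M and -0.05 in T790M tumours, against 0.05, 0.03 and 0.00 over all genes. Arrays of tumour and normal lung did not overlap for 25, 14 and 18 members in these 3 comparisons, while 35.8%, 29.8% and 29.8% of all genes separated in this way. Of the members, 30 lay among the 6064 dimmest genes, where 10, 6 and 10 were called, and 35 lay above them, where 16, 15 and 16 were called. Calls over all genes were not counted by this split, so these last counts have no background beside them.

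Some members were called in the same direction in every tumour group. Mmp12, Adam19, Adamts4, Adamts12 and Adam1a were higher in all 3 comparisons. Timp3, Adamts5, Adamts8, Adamts10, Adamts20, Adam15 and Adam33 were lower in all 3. These 5 and 7 members were 7.69% and 10.8% of the 65, while 12.8% of all genes were higher and 11.2% lower in all 3, so the members were not called together more often than other genes. Another 26 members were called in 1 or 2 comparisons, 27 in none (41.5%, against 43.4% of all genes), and 0 were called in opposite directions. Of the 30 members with several probe sets, 0 had probe sets called in opposite directions within the same comparison. Across comparisons, Adam23 had 1 of 3 probe sets called higher in L858R tumours and 1 called lower in L858R+T790M tumours.

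**Figure D1:**
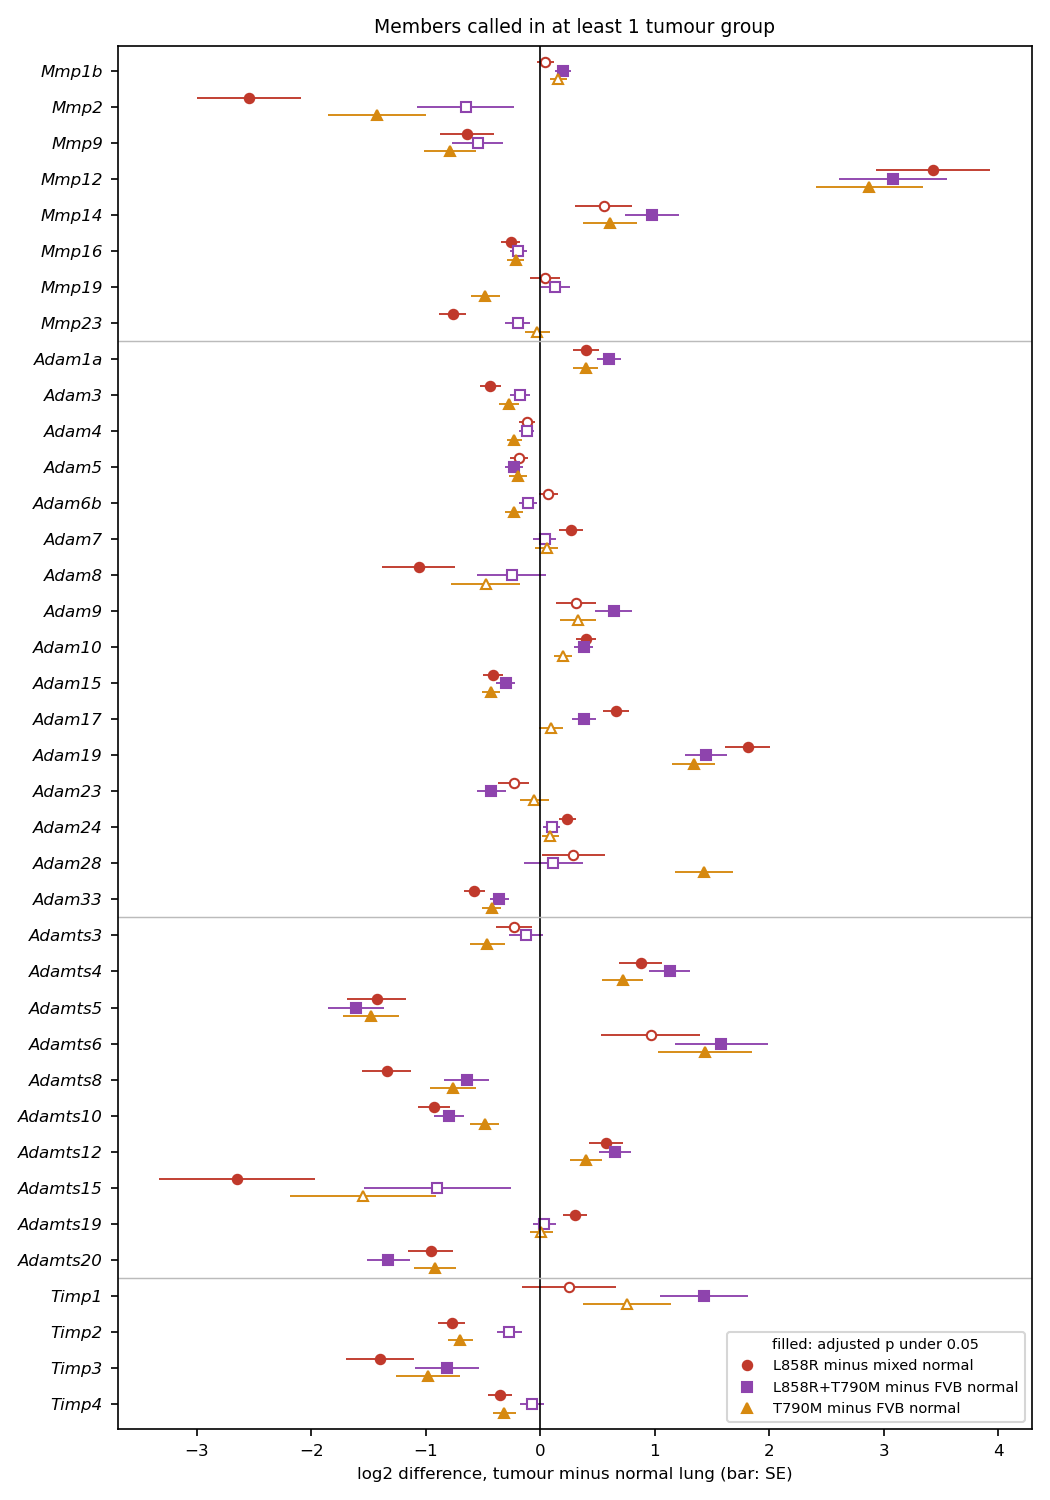
Log2 difference between tumour and normal lung (horizontal axis, bar: SE) for the 38 members called in at least 1 of the 3 comparisons, grouped from top to bottom as MMPs, ADAMs, ADAMTS proteases and TIMPs; filled symbols have a limma adjusted p under 0.05. Mmp12 lies farthest to the right, at 3.44, 3.08 and 2.88, and Adamts15 and Mmp2 lie farthest to the left in L858R tumours, at -2.65 and -2.54.

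Among the secreted MMPs, Mmp12 had the highest difference of any member. Mmp12 encodes macrophage elastase, which degrades elastin and is known from alveolar macrophages. Its log2 level was 9.45, 8.72, 10.55 and 10.04 in L858R tumours, against 5.45, 5.36, 6.49, 7.47 and 6.50 in FVB mixed normal lungs. It stood at 9.72, 8.60, 10.54, 11.33 and 9.91 in L858R+T790M tumours and 9.09, 9.11, 10.29, 10.63 and 9.95 in T790M tumours, against 6.91, 7.15, 6.61, 6.38 and 7.64 in FVB normal lungs. Every tumour lay above every normal lung. The differences were 3.44 ± 0.50, 3.08 ± 0.47 and 2.88 ± 0.47 in L858R, L858R+T790M and T790M tumours, or 10.8-, 8.47- and 7.34-fold (limma adjusted p of 1.09e-05, 2.54e-05 and 5.41e-05).

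Alveolar macrophage markers moved with Mmp12 in part. Of 9 measured markers, 7 were higher in L858R tumours, 2 were higher and 1 lower in L858R+T790M tumours, and 1 was higher and 1 lower in T790M tumours. The share called higher over all genes was 23.3%, 20.2% and 21.9% in these comparisons. The mean log2 level of the 9 markers per array ranged over 10.58 to 11.58 in L858R tumours, against 9.53 to 9.78 in FVB mixed normal lungs. It ranged over 9.43 to 10.84 in L858R+T790M and 9.72 to 10.19 in T790M tumours, against 9.66 to 9.90 in FVB normal lungs. In T790M tumours this list overlapped with the normal lungs, while Mmp12 did not. The part of macrophage number in the rise of Mmp12 was not tested.

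**Figure D2:**
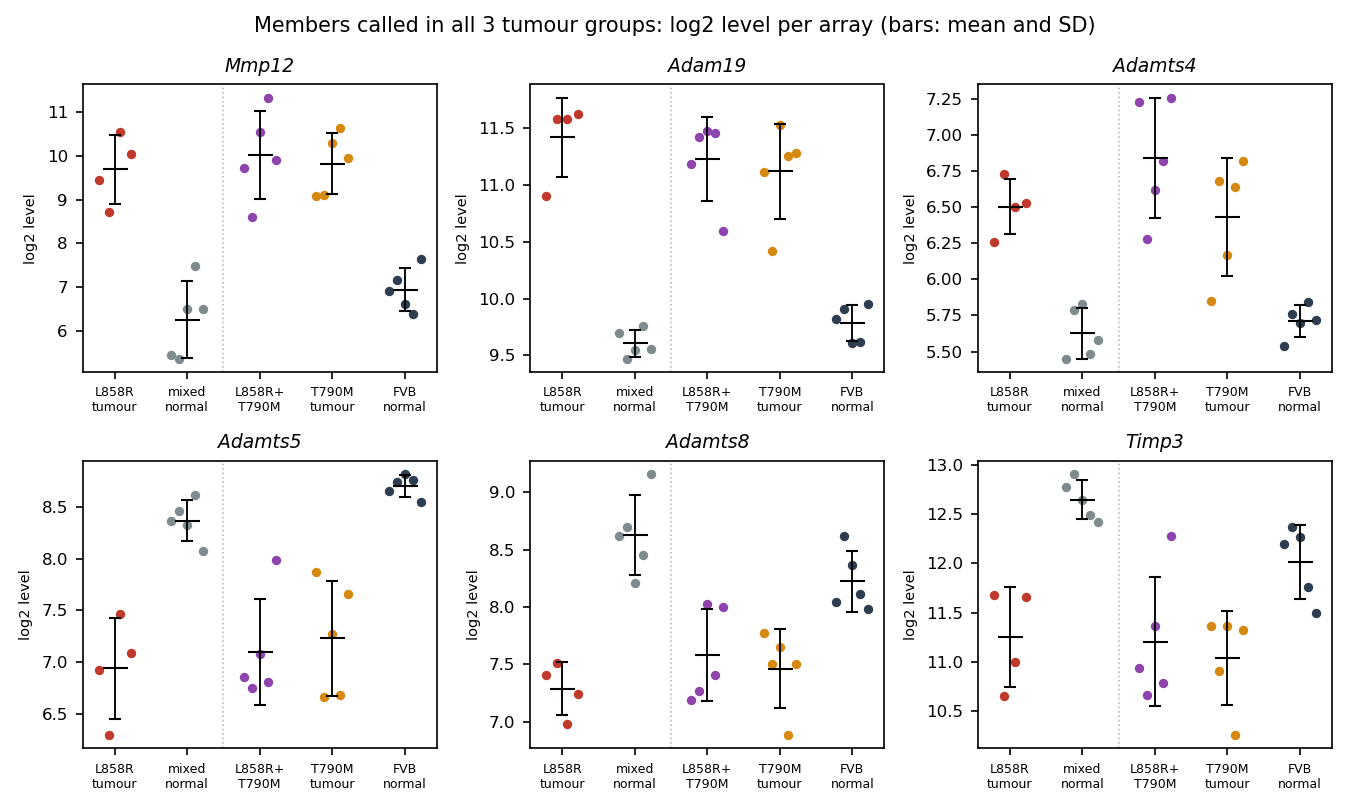
Log2 level (vertical axis) of Mmp12, Adam19, Adamts4, Adamts5, Adamts8 and Timp3 on each array (points), with the mean and SD of each group; the dotted line parts the FVB mixed groups from the FVB groups. All tumours lie above the normal lungs of their strain label for Mmp12, Adam19 and Adamts4 and below them for Adamts5, while 1 or 2 L858R+T790M tumours reach the FVB normal lungs for Adamts8 and Timp3.

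Mmp12 belongs to a run of neighbouring Mmp genes on mouse chromosome 9, in the order Mmp13, Mmp12, Mmp1b, Mmp3, Mmp1a, Mmp10, Mmp8, Mmp20 and Mmp7 among the 9 measured. The run includes collagenases, stromelysins and matrilysin. Most of the other 8 were not called beside it. Of all genes, 41.4%, 36.2% and 39.8% were called in L858R, L858R+T790M and T790M tumours. Mmp13, Mmp1b, Mmp1a, Mmp10 and Mmp20 were among the dimmest genes, where a difference is harder to see. In L858R and T790M tumours 0 of these 8 were called by limma (unadjusted p under 0.05 in 1 and 2 of them), and in L858R+T790M tumours 1 was, Mmp1b, an interstitial collagenase gene of rodents, which is among the dimmest genes and differed by 0.20 ± 0.07 (limma adjusted p = 0.0328). Its arrays overlapped, and the Mmp1b call was lost when any 1 of 5 of the 10 arrays was left out. Differences of the 8 ranged from -0.59 to 0.98 in L858R, from -0.15 to 0.77 in L858R+T790M and from -0.87 to 0.64 in T790M tumours. Mmp8, the neutrophil collagenase, gave both the highest of these in L858R tumours, 0.98 ± 0.41, and the lowest in T790M tumours, -0.87 ± 0.39, and neither was called (limma adjusted p = 0.0613 and 0.0803). Its levels were 8.98, 7.28, 8.19 and 7.54 in L858R tumours, against 6.92, 6.76, 7.11, 7.09 and 7.20 in FVB mixed normal lungs, so these arrays did not overlap. The L858R difference of Mmp8 was called with each array centred on its median and in a fit to only these groups (limma adjusted p = 0.0398 and 0.0192).

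**Figure D3:**
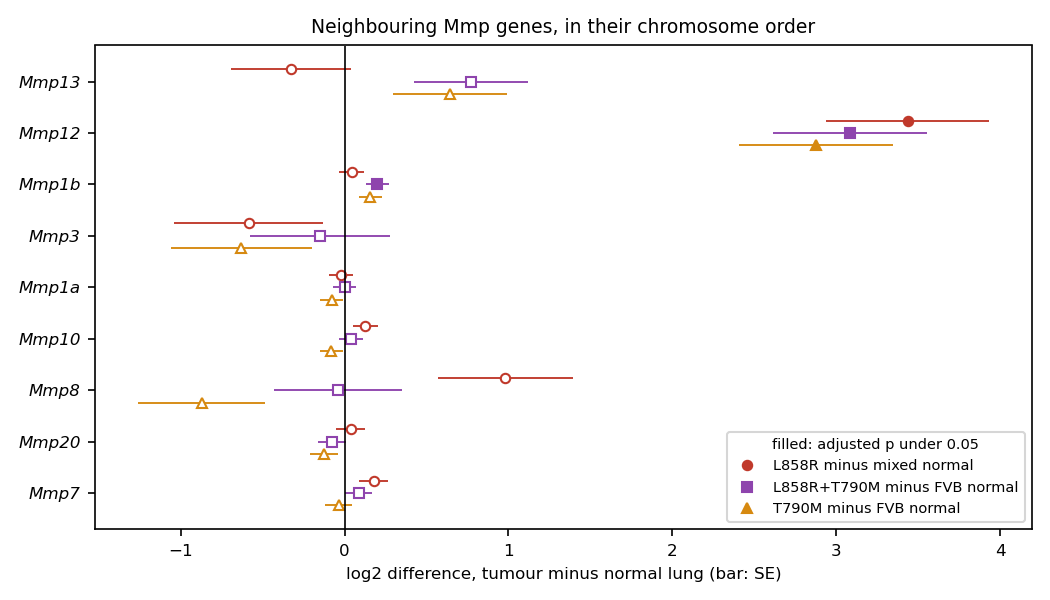
Log2 difference between tumour and normal lung (horizontal axis, bar: SE) for the 9 measured Mmp genes of the chromosome 9 run, listed in their order along the chromosome; filled symbols have a limma adjusted p under 0.05. Mmp12 lies near 3 in each comparison, while the other 8 genes lie between -0.87 and 0.98.

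These neighbours can be set side by side by the bases before their starts, since a binding motif of the AP-1 factors, which act downstream of growth factor signalling, is a known feature of MMP promoters. RefSeq promoters of GRCm38.p6, from 250 bases before the annotated start to 50 after it, were found for 37 of the 65 members, as 42 promoters. The letters TGANTCA, which read the same on both strands, occurred in 11 of the 42 (26.2%), against 7.81% of 32851 promoters of all genes. In the chromosome 9 run they occurred within the 80 bases shown here, 100 to 21 bases before the start, in 8 of 9 genes, all but Mmp8. Outside this run only Adam19, Adam1b and Adam25 held them, so the share among member promoters rests largely on these neighbouring genes. Capitals mark TGANTCA, each sequence reads 5′ to 3′ on the gene's strand, and Mmp12 and Mmp7 have 2 annotated starts, of which the one with the match is shown.
Mmp13 (chr9:7272414-7272493, + strand): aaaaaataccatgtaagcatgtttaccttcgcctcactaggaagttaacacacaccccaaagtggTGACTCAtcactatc
Mmp12 (chr9:7347274-7347353, + strand): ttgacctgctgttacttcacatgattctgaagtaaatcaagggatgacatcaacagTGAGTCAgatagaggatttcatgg
Mmp1b (chr9:7388047-7388126, - strand): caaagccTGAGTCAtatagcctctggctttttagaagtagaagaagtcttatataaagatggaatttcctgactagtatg
Mmp3 (chr9:7445722-7445801, + strand): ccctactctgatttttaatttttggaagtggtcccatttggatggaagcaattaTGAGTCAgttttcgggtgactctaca
Mmp1a (chr9:7464041-7464120, + strand): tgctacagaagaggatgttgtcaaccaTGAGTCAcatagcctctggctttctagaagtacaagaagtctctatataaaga
Mmp10 (chr9:7502242-7502321, + strand): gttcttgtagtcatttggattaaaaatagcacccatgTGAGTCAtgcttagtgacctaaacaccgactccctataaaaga
Mmp8 (chr9:7558329-7558408, + strand): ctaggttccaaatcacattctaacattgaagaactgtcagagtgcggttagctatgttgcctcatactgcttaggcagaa
Mmp20 (chr9:7628131-7628210, + strand): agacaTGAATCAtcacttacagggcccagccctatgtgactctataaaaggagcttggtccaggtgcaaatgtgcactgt
Mmp7 (chr9:7691990-7692069, + strand): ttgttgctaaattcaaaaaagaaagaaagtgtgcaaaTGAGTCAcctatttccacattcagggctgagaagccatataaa
The match began 44 bases before the start in Mmp12, which was higher in every tumour group, and 35 bases before it in Mmp13, which was called in none. Adam19, also higher in every group, holds the same letters farther out, 131 bases before 1 of its 3 annotated starts, as shown by 80 bases that end 81 before that start.
Adam19 (chr11:46055824-46055903, + strand): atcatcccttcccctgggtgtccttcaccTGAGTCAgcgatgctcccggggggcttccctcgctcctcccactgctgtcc
Over the members, the match was found in 2 of 7 promoters of members higher in all 3 comparisons. It was found in 0 of 3 promoters of those lower in all 3 and 8 of 19 of those called in none. These promoters belong to 4, 3 and 18 genes, as some genes have several starts. Whether the match follows the calls was not tested. Of 3 further motifs searched on both strands, AGGAAG (ETS factors) occurred in 42.9% of member promoters against 35.4% of all, TATAAA (the TATA box) in 28.6% against 13.6%, and TTGCNNAA (CEBP factors) in 19.0% against 10.8%, with 0 overlaps between matches of different motifs. Outside the chromosome 9 run TATAAA was found only in Adam6a, Adam6b and Adamts1, and TTGCNNAA only in Adam8, Adam15 and Adam25. A match is a description of these letters and not evidence of a bound site.

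The gelatinases, which cut denatured collagen and basement membrane, were lower. Mmp2, made largely by fibroblasts, stood at 9.68, 8.64, 9.0 and 8.06 in L858R tumours, against 11.24, 11.07, 11.67, 11.18 and 11.79 in FVB mixed normal lungs. It was 9.85, 8.22, 9.87, 8.63 and 11.13 in L858R+T790M tumours and 9.58, 7.93, 9.51, 8.18 and 8.63 in T790M tumours, against 10.23, 10.18, 10.54, 10.29 and 9.72 in FVB normal lungs. L858R and T790M tumours all lay below their normal lungs, whereas replicate 5 of the L858R+T790M group lay above all FVB normal lungs. Mmp2 fell by 2.54 ± 0.45 in L858R tumours and by 1.43 ± 0.42 in T790M tumours (limma adjusted p = 0.000103 and 0.0101). In L858R+T790M tumours the difference of -0.65 ± 0.42 was not called (limma adjusted p = 0.251), and without replicate 5 it was -1.05 and called (limma adjusted p = 0.0344).

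Mmp9, the gelatinase of neutrophils and macrophages, was 7.42, 7.47, 7.0 and 7.26 in L858R tumours, against 8.09, 7.65, 8.02, 7.78 and 8.10 in FVB mixed normal lungs. It was 8.30, 7.53, 7.69, 7.65 and 7.71 in L858R+T790M tumours and 7.81, 7.57, 7.44, 7.50 and 7.35 in T790M tumours, against 8.04, 9.03, 7.84, 7.62 and 9.08 in FVB normal lungs. The L858R tumours lay just under their normal lungs, and the other groups overlapped, with replicates 2 and 5 of the FVB normal lungs the highest of all. Mmp9 fell by 0.64 ± 0.24 in L858R (limma adjusted p = 0.0353) and 0.79 ± 0.22 in T790M tumours (limma adjusted p = 0.00753), and its -0.55 ± 0.22 in L858R+T790M tumours was not called (limma adjusted p = 0.0624). The L858R call of Mmp9 was lost when any 1 of 5 of the 9 arrays was left out. Neutrophil markers moved with Mmp9 in part. Of 7 measured, 0, 1 and 6 were called lower in L858R, L858R+T790M and T790M tumours and 0 higher, where 18.1%, 16.1% and 17.9% of all genes were called lower. The median difference over the 7 markers was -0.53 in L858R tumours. Their mean log2 level per array ranged over 7.20 to 8.78 in L858R tumours, against 8.22 to 8.66 in FVB mixed normal lungs. Their mean log2 level in replicates 2 and 5 of the FVB normal lungs was 10.04 and 10.36, against 8.27 to 8.84 in the other 3. The part of neutrophils in the Mmp9 levels was not tested.

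Of the other secreted MMPs, Mmp19, a matrix enzyme found in many tissues, was lower in T790M tumours, at -0.48 ± 0.12 (limma adjusted p = 0.00382) and had 0.04 ± 0.13 in L858R and 0.13 ± 0.12 in L858R+T790M tumours, neither called. Of 13 secreted MMPs, 1 was higher and 2 lower in L858R, 2 higher and 0 lower in L858R+T790M, and 1 higher and 3 lower in T790M tumours. These calls made up 23.1%, 15.4% and 30.8% of the 13, against 41.4%, 36.2% and 39.8% of all genes. The uncalled secreted MMPs included Mmp3 (stromelysin 1), Mmp7 (matrilysin), Mmp11 and Mmp13 (collagenase 3).

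Among the 5 membrane MMPs, Mmp14 is known to activate pro-Mmp2 at the cell surface. It was 9.49, 9.38, 9.86 and 9.87 in L858R tumours, against 9.07, 8.56, 9.27, 9.07 and 9.51 in FVB mixed normal lungs. It was 10.14, 8.98, 9.47, 9.30 and 10.70 in L858R+T790M tumours and 8.97, 9.57, 9.34, 9.35 and 9.53 in T790M tumours, against 8.92, 8.92, 8.69, 8.51 and 8.66 in FVB normal lungs. Tumours of both FVB groups lay above all FVB normal lungs, by 0.06 and 0.05 at the nearest, and replicates 1 and 5 of the L858R+T790M group were the highest. Mmp14 was higher by 0.98 ± 0.24 in L858R+T790M and by 0.61 ± 0.24 in T790M tumours (limma adjusted p = 0.00238 and 0.0439), while 0.55 ± 0.25 in L858R tumours was not called (limma adjusted p = 0.0822), though it was in a fit to only these groups (limma adjusted p = 0.0312). The T790M call of Mmp14 was lost when any 1 of 7 of the 10 arrays was left out. In T790M tumours, then, Mmp14 was higher and Mmp2, which it is known to activate, was lower.

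Mmp23 fell in L858R tumours, to 7.52, 7.59, 7.49 and 7.43, against 8.37, 8.44, 8.0, 8.51 and 8.04 in FVB mixed normal lungs. It did not separate in the other groups, with 7.61, 7.39, 7.53, 7.32 and 7.67 in L858R+T790M and 7.75, 7.96, 7.54, 7.42 and 7.71 in T790M tumours, against 7.80, 7.50, 7.85, 7.63 and 7.73 in FVB normal lungs. The L858R tumours lay within the range of the FVB tumours, and the FVB mixed normal lungs stood above the other 4 groups. The difference was -0.76 ± 0.12 in L858R tumours (limma adjusted p = 1.88e-05). In L858R+T790M tumours the -0.20 of Mmp23 was not called (limma adjusted p = 0.171), though 1 of its 2 probe sets was called lower there. With the median over the probe sets it was -0.33 in those tumours and called (limma adjusted p = 0.0214). Mmp16, a membrane MMP of low signal here, was lower, at -0.26 ± 0.08 in L858R and -0.21 ± 0.08 in T790M tumours (limma adjusted p = 0.0119 and 0.027), and its -0.19 ± 0.08 in L858R+T790M tumours was not called. In L858R and in T790M tumours 1 of 4 probe sets of Mmp16 was called, and with the median over them the L858R value was -0.04 and not called (limma adjusted p = 0.567). The T790M call of Mmp16 was lost when any 1 of 4 of the 10 arrays was left out, and the L858R call without L858R replicate 1.

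Among the ADAMs, 1 of those higher in every tumour group was Adam19. Adam19, a membrane sheddase known to cleave neuregulin, was 10.90, 11.58, 11.58 and 11.63 in L858R tumours, against 9.70, 9.47, 9.55, 9.76 and 9.56 in FVB mixed normal lungs. It was 11.19, 11.42, 11.48, 11.46 and 10.60 in L858R+T790M tumours and 11.12, 10.42, 11.53, 11.26 and 11.28 in T790M tumours, against 9.82, 9.91, 9.61, 9.62 and 9.95 in FVB normal lungs. The tumours lay above all normal lungs in each comparison. Adam19 was higher by 1.81 ± 0.20, 1.45 ± 0.18 and 1.34 ± 0.18 (limma adjusted p of 3.71e-07, 3.43e-06 and 8.76e-06), or 3.52-, 2.73- and 2.53-fold.

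Adam10 and Adam17 are the main known sheddases of EGFR ligands, Adam10 for EGF and betacellulin and Adam17 for TGF-alpha, amphiregulin and HB-EGF. Adam10 was 11.94, 11.87, 11.96 and 12.23 in L858R tumours, against 11.64, 11.58, 11.57, 11.58 and 11.62 in FVB mixed normal lungs. It was 12.04, 11.57, 11.78, 11.93 and 12.03 in L858R+T790M tumours and 11.67, 11.71, 11.77, 11.58 and 11.72 in T790M tumours, against 11.42, 11.54, 11.62, 11.42 and 11.45 in FVB normal lungs. L858R tumours lay above their normal lungs, and the FVB groups overlapped. It was higher by 0.40 ± 0.09 in L858R and 0.38 ± 0.08 in L858R+T790M tumours (limma adjusted p = 0.000644 and 0.000737), and 0.20 ± 0.08 in T790M tumours just missed the call (limma adjusted p = 0.0527).

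Adam17 stood at 10.73, 10.29, 10.25 and 10.19 in L858R tumours, against 9.68, 9.41, 9.73, 9.88 and 9.81 in FVB mixed normal lungs. Its levels were 10.45, 10.09, 9.99, 10.23 and 10.31 in L858R+T790M tumours and 9.90, 9.73, 9.98, 10.01 and 9.99 in T790M tumours, against 9.83, 9.94, 9.76, 9.83 and 9.78 in FVB normal lungs. L858R and L858R+T790M tumours lay above all their normal lungs, while of the T790M tumours 3 lay just above all FVB normal lungs, 1 below all of them and 1 among them. Adam17 rose by 0.66 ± 0.11 in L858R and 0.39 ± 0.10 in L858R+T790M tumours (limma adjusted p = 5.83e-05 and 0.00589), and its 0.09 ± 0.10 in T790M tumours was not called (limma adjusted p = 0.512). The L858R+T790M call of Adam17 rested on the probe set used: 1 of its 3 probe sets was called there, and with the median over them the difference was 0.24 and not called (limma adjusted p = 0.073), while in L858R tumours all 3 were called and the median gave 0.40. The groups were not shown to differ in this: L858R+T790M minus T790M tumours gave 0.29 ± 0.10 (limma adjusted p = 0.151), and the L858R effect minus the T790M effect gave 0.57 ± 0.15 (limma adjusted p = 0.0975). The direct difference between L858R and T790M tumours, which leaves out the normal lungs, was 0.44 for Adam17 and was called (limma adjusted p = 0.0266). Rhbdf2, which carries ADAM17 to the cell surface, was higher by 0.39 ± 0.09 in L858R and 0.42 ± 0.08 in L858R+T790M tumours (limma adjusted p = 0.0013 and 0.000458) and had 0.18 ± 0.08 in T790M tumours, not called. Of the other ADAM17 partners, Rhbdf1 was called in L858R tumours, at -0.36 ± 0.13 (limma adjusted p = 0.03), and in neither other group, and Frmd8 was called in 0 of the 3.

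Adam28 was higher in T790M tumours. This ADAM is known from lymphocytes and epithelium. Its levels were 7.73, 8.40, 8.40, 7.94 and 8.67 in T790M tumours, against 7.04, 6.85, 6.50, 6.74 and 6.86 in FVB normal lungs, and they were 6.74, 7.12, 7.29, 7.30 and 6.11 in L858R+T790M tumours. L858R tumours had 6.61, 7.01, 8.27 and 7.16, against 6.87, 7.14, 6.85, 7.29 and 6.71 in FVB mixed normal lungs. All 5 T790M tumours lay above all FVB normal lungs and all L858R+T790M tumours, and of the L858R tumours replicate 3 reached the T790M range. Adam28 was higher by 1.43 ± 0.26 in T790M tumours (limma adjusted p = 0.00014), and its 0.11 ± 0.26 in L858R+T790M and 0.29 ± 0.27 in L858R tumours were not called (limma adjusted p = 0.777 and 0.417). Without replicate 3 the L858R value was -0.05.

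Adam8, an ADAM of neutrophils and macrophages, was 7.41, 7.23, 7.11 and 7.0 in L858R tumours, against 7.94, 8.19, 8.18, 8.68 and 8.26 in FVB mixed normal lungs. It was 8.33, 7.32, 7.62, 7.50 and 9.41 in L858R+T790M tumours and 8.17, 7.15, 7.73, 7.89 and 8.11 in T790M tumours, against 8.09, 8.81, 8.0, 7.81 and 8.72 in FVB normal lungs. L858R tumours lay below all their normal lungs, whereas replicates 1 and 5 of the L858R+T790M group lay among or above the FVB normal lungs. It fell by 1.06 ± 0.32 in L858R tumours (limma adjusted p = 0.0101), and -0.25 ± 0.30 in L858R+T790M and -0.48 ± 0.30 in T790M tumours were not called.

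Smaller differences were seen for other ADAMs. Adam9, another sheddase, was higher in L858R+T790M tumours by 0.64 ± 0.16 (limma adjusted p = 0.00318). Adam15, known from endothelium and epithelium, was lower, at -0.41 ± 0.09, -0.30 ± 0.08 and -0.43 ± 0.08 in L858R, L858R+T790M and T790M tumours (limma adjusted p of 0.000541, 0.00523 and 0.000215). Adam33, a gene of airway smooth muscle and fibroblasts, was lower, at -0.57 ± 0.09, -0.36 ± 0.08 and -0.42 ± 0.08 (limma adjusted p of 2.46e-05, 0.00198 and 0.000381). Adam1a, known from sperm, was higher by 0.40 ± 0.11, 0.60 ± 0.11 and 0.40 ± 0.11, at a low signal (limma adjusted p of 0.00771, 0.000142 and 0.00516). The remaining called ADAMs each differed by less than 0.5: Adam24 and Adam7 were higher and Adam3 lower in L858R tumours, Adam5 and Adam23 lower in L858R+T790M tumours, and Adam3, Adam4, Adam5 and Adam6b lower in T790M tumours. Of these, the calls of Adam7 in L858R and Adam5 in T790M tumours were lost when any 1 of 6 of the 9 and 7 of the 10 arrays was left out, those of Adam24 in L858R, Adam5 in L858R+T790M and Adam3 and Adam6b in T790M tumours when any 1 of 2 arrays was. For Adam23 in L858R+T790M tumours 1 of 3 probe sets was called. With the median over them its difference was -0.17 and not called (limma adjusted p = 0.221). In all, 6 of 28 ADAMs were higher and 4 lower in L858R, 5 higher and 4 lower in L858R+T790M, and 3 higher and 6 lower in T790M tumours. Called ADAMs were 35.7%, 32.1% and 32.1% of the 28, against 41.4%, 36.2% and 39.8% of all genes.

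Among the ADAMTS proteases, the enzymes that cut aggrecan and versican moved in opposite directions. Adamts5, the main aggrecanase of mouse cartilage and a versicanase, was 6.92, 6.29, 7.46 and 7.09 in L858R tumours, against 8.37, 8.46, 8.33, 8.62 and 8.07 in FVB mixed normal lungs. It was 6.85, 6.75, 7.08, 6.81 and 7.99 in L858R+T790M tumours and 7.87, 6.66, 7.27, 6.68 and 7.66 in T790M tumours, against 8.66, 8.74, 8.82, 8.76 and 8.55 in FVB normal lungs. All tumours lay below all normal lungs of their strain label, nearest in replicate 5 of the L858R+T790M and replicate 1 of the T790M tumours. Adamts5 fell by 1.43 ± 0.26, 1.61 ± 0.25 and 1.48 ± 0.25 (limma adjusted p of 0.000141, 2.61e-05 and 6.55e-05).

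Adamts4, the other aggrecanase, was 6.26, 6.73, 6.50 and 6.53 in L858R tumours, against 5.45, 5.79, 5.83, 5.48 and 5.58 in FVB mixed normal lungs. Its levels were 7.23, 6.28, 6.62, 6.82 and 7.26 in L858R+T790M tumours and 5.85, 6.68, 6.17, 6.64 and 6.82 in T790M tumours, against 5.54, 5.76, 5.70, 5.84 and 5.72 in FVB normal lungs. Tumours lay above normal lungs in each comparison, though T790M replicate 1 cleared the highest FVB normal lung by 0.01. Adamts4 rose by 0.88 ± 0.19, 1.13 ± 0.18 and 0.72 ± 0.18 (limma adjusted p of 0.000663, 3.38e-05 and 0.00246), at a signal among the dimmest genes. Adamts1 lies beside Adamts5 on chromosome 16, is a versicanase with antiangiogenic activity, and was not called, with 0.60 ± 0.45, -0.07 ± 0.42 and 0.13 ± 0.42. Adamts9, a further versicanase, was not called either, with 0.26 ± 0.37, 0.52 ± 0.35 and 0.14 ± 0.35.

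Adamts8 and Adamts15, also of the aggrecanase and versicanase class, are neighbours on chromosome 9. Adamts8, known for high expression in lung, was 7.41, 7.51, 6.98 and 7.24 in L858R tumours, against 8.62, 8.70, 8.21, 8.45 and 9.16 in FVB mixed normal lungs. It was 7.19, 7.27, 8.03, 7.41 and 8.0 in L858R+T790M tumours and 7.77, 7.50, 7.65, 6.88 and 7.50 in T790M tumours, against 8.04, 8.62, 8.37, 8.11 and 7.98 in FVB normal lungs. L858R and T790M tumours lay below their normal lungs, and replicates 3 and 5 of the L858R+T790M group overlapped with theirs. Adamts8 fell by 1.34 ± 0.21, 0.64 ± 0.20 and 0.76 ± 0.20 (limma adjusted p of 2.74e-05, 0.0139 and 0.00389).

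Adamts15 was 8.08, 7.35, 7.59 and 7.54 in L858R tumours, against 9.28, 8.93, 12.35, 8.60 and 12.29 in FVB mixed normal lungs. It was 8.57, 7.66, 8.78, 7.68 and 9.40 in L858R+T790M tumours and 8.30, 7.29, 8.32, 7.35 and 7.58 in T790M tumours, against 8.82, 9.55, 8.72, 11.11 and 8.38 in FVB normal lungs. Of the normal lungs, replicates 3 and 5 of FVB mixed and replicate 4 of FVB stood far above the others. Adamts15 fell by 2.65 ± 0.68 in L858R tumours (limma adjusted p = 0.00331), and -0.90 ± 0.64 in L858R+T790M and -1.55 ± 0.64 in T790M tumours were not called (limma adjusted p = 0.3 and 0.0598). Without replicate 4 of the FVB normal lungs the last 2 values of Adamts15 were -0.45 and -1.10.

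Adamts20, known from melanocyte development, was among the dimmest genes, at 3.84, 4.05, 3.70 and 3.90 in L858R tumours, against 4.64, 5.23, 4.72, 4.90 and 4.65 in FVB mixed normal lungs. It was 3.84, 3.71, 3.98, 3.78 and 3.70 in L858R+T790M tumours and 5.12, 3.79, 3.84, 3.96 and 4.33 in T790M tumours, against 5.22, 4.98, 5.31, 4.77 and 5.36 in FVB normal lungs. L858R and L858R+T790M tumours lay below all their normal lungs, and T790M replicate 1 lay among the FVB normal lungs. Adamts20 fell by 0.96 ± 0.20, 1.33 ± 0.18 and 0.92 ± 0.18 (limma adjusted p of 0.00046, 9.3e-06 and 0.00042).

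Adamts6, a protease known from heart development and fibrillin microfibrils, was 6.32, 7.08, 8.38 and 7.44 in L858R tumours, against 6.03, 6.20, 6.34, 6.58 and 6.55 in FVB mixed normal lungs. It was 7.96, 8.40, 7.83, 8.41 and 6.89 in L858R+T790M tumours and 7.40, 7.22, 7.43, 9.72 and 7.0 in T790M tumours, against 6.43, 6.34, 6.40, 6.05 and 6.36 in FVB normal lungs. Both FVB tumour groups lay above all FVB normal lungs, T790M replicate 4 the highest, while L858R replicate 1 lay among its normal lungs. Adamts6 was higher by 1.58 ± 0.41 in L858R+T790M and 1.44 ± 0.41 in T790M tumours (limma adjusted p = 0.00398 and 0.00734), and 0.96 ± 0.43 in L858R tumours was not called (limma adjusted p = 0.0794). Without T790M replicate 4 the T790M value of Adamts6 was 0.95 (limma adjusted p = 0.0177). Adamts10, a partner of fibrillin, fell by 0.93 ± 0.14, 0.80 ± 0.13 and 0.49 ± 0.13, and Adamts12, which is known to cut cartilage oligomeric matrix protein, rose by 0.57 ± 0.15, 0.65 ± 0.14 and 0.40 ± 0.14 (limma adjusted p at most 0.00474 and 0.0247). In each comparison 1 of 2 probe sets of Adamts12 was called. In T790M tumours the median over them gave 0.15, not called (limma adjusted p = 0.134), and the Adamts12 call was also lost without FVB normal replicate 5, T790M replicate 4 or T790M replicate 5. Adamts3, the procollagen N-proteinase measured, was lower in T790M tumours, at -0.46 ± 0.15 (limma adjusted p = 0.0184), and Adamts19 was higher in L858R tumours by 0.30 ± 0.11 (limma adjusted p = 0.027). The Adamts3 call was lost without 1 array, and that of Adamts19 when any 1 of 5 of the 9 arrays was left out. Of 15 ADAMTS proteases, 3 were higher and 5 lower in L858R, 3 higher and 4 lower in L858R+T790M, and 3 higher and 5 lower in T790M tumours. Called ADAMTS proteases were 53.3%, 46.7% and 53.3% of the 15, against 41.4%, 36.2% and 39.8% of all genes.

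The inhibitors fell more than they rose in L858R and T790M tumours. Of 4 TIMPs, 3 were lower in each of these groups, and 1 was lower and 1 higher in L858R+T790M tumours. Of all genes, 18.1%, 16.1% and 17.9% were lower in L858R, L858R+T790M and T790M tumours, and 20.2% were higher in L858R+T790M tumours. Timp3 is the TIMP that stays bound to the matrix and inhibits ADAM17 and the aggrecanases as well as MMPs. It was 11.68, 10.65, 11.0 and 11.66 in L858R tumours, against 12.78, 12.91, 12.65, 12.49 and 12.42 in FVB mixed normal lungs. Its levels were 10.94, 10.66, 11.36, 10.78 and 12.28 in L858R+T790M tumours and 11.36, 10.90, 11.36, 10.25 and 11.32 in T790M tumours, against 12.20, 12.37, 12.27, 11.76 and 11.49 in FVB normal lungs. L858R and T790M tumours lay below their normal lungs, and replicate 5 of the L858R+T790M group stood among the highest FVB normal lungs. Timp3 fell by 1.40 ± 0.30 in L858R, 0.81 ± 0.28 in L858R+T790M and 0.98 ± 0.28 in T790M tumours (limma adjusted p of 0.000601, 0.0257 and 0.00744). The L858R+T790M call of Timp3 was lost when any 1 of 6 of the 10 arrays was left out.

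Timp2, which inhibits MMPs and also takes part in the activation of pro-Mmp2 by Mmp14, was 12.12, 12.01, 12.37 and 12.29 in L858R tumours, against 13.13, 12.95, 12.91, 12.89 and 12.97 in FVB mixed normal lungs. It was 12.41, 12.26, 12.53, 12.41 and 12.41 in L858R+T790M tumours and 12.34, 11.73, 12.14, 11.56 and 12.11 in T790M tumours, against 12.61, 12.76, 12.77, 12.69 and 12.55 in FVB normal lungs. Tumours lay below normal lungs in all 3 comparisons, by 0.02 at the nearest in L858R+T790M tumours. Timp2 fell by 0.77 ± 0.12 in L858R and 0.70 ± 0.11 in T790M tumours (limma adjusted p = 1.77e-05 and 3.6e-05), and -0.27 ± 0.11 in L858R+T790M tumours was not called (limma adjusted p = 0.058). L858R+T790M minus T790M tumours gave 0.43 ± 0.11 (limma adjusted p = 0.0501).

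Timp4, of low signal here, was 6.35, 6.91, 6.41 and 6.82 in L858R tumours, against 6.96, 6.90, 7.13, 7.01 and 6.88 in FVB mixed normal lungs. It was 6.91, 7.06, 7.07, 6.83 and 7.06 in L858R+T790M tumours and 6.62, 6.80, 6.69, 6.62 and 6.98 in T790M tumours, against 7.18, 7.18, 7.07, 6.90 and 6.96 in FVB normal lungs. The groups overlapped in each comparison. Timp4 fell by 0.35 ± 0.11 in L858R and 0.32 ± 0.10 in T790M tumours (limma adjusted p = 0.0109 and 0.0158), and -0.07 ± 0.10 in L858R+T790M tumours was not called (limma adjusted p = 0.628). The L858R call of Timp4 was lost when either of 2 of the 9 arrays was left out.

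Timp1, the soluble TIMP known to be induced by inflammation and growth factors, ran the other way. It was 10.03, 8.26, 8.60, 9.35 and 10.92 in L858R+T790M tumours and 8.11, 8.22, 9.29, 9.0 and 9.20 in T790M tumours, against 8.39, 8.32, 7.74, 7.64 and 7.93 in FVB normal lungs. L858R tumours had 8.65, 7.67, 8.71 and 8.02, against 7.49, 7.60, 8.05, 8.60 and 8.31 in FVB mixed normal lungs. Replicates 1 and 5 of the L858R+T790M group were the highest of all 24 arrays, and every group overlapped with its normal lungs. Timp1 was higher by 1.43 ± 0.39 in L858R+T790M tumours (limma adjusted p = 0.00556), and 0.76 ± 0.39 in T790M and 0.25 ± 0.41 in L858R tumours were not called (limma adjusted p = 0.125 and 0.657). The tumour groups were not shown to differ, with 0.67 ± 0.39 for L858R+T790M minus T790M tumours (limma adjusted p = 0.395) and -1.18 ± 0.56 for the L858R effect minus the L858R+T790M effect (limma adjusted p = 0.52).

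**Figure D4:**
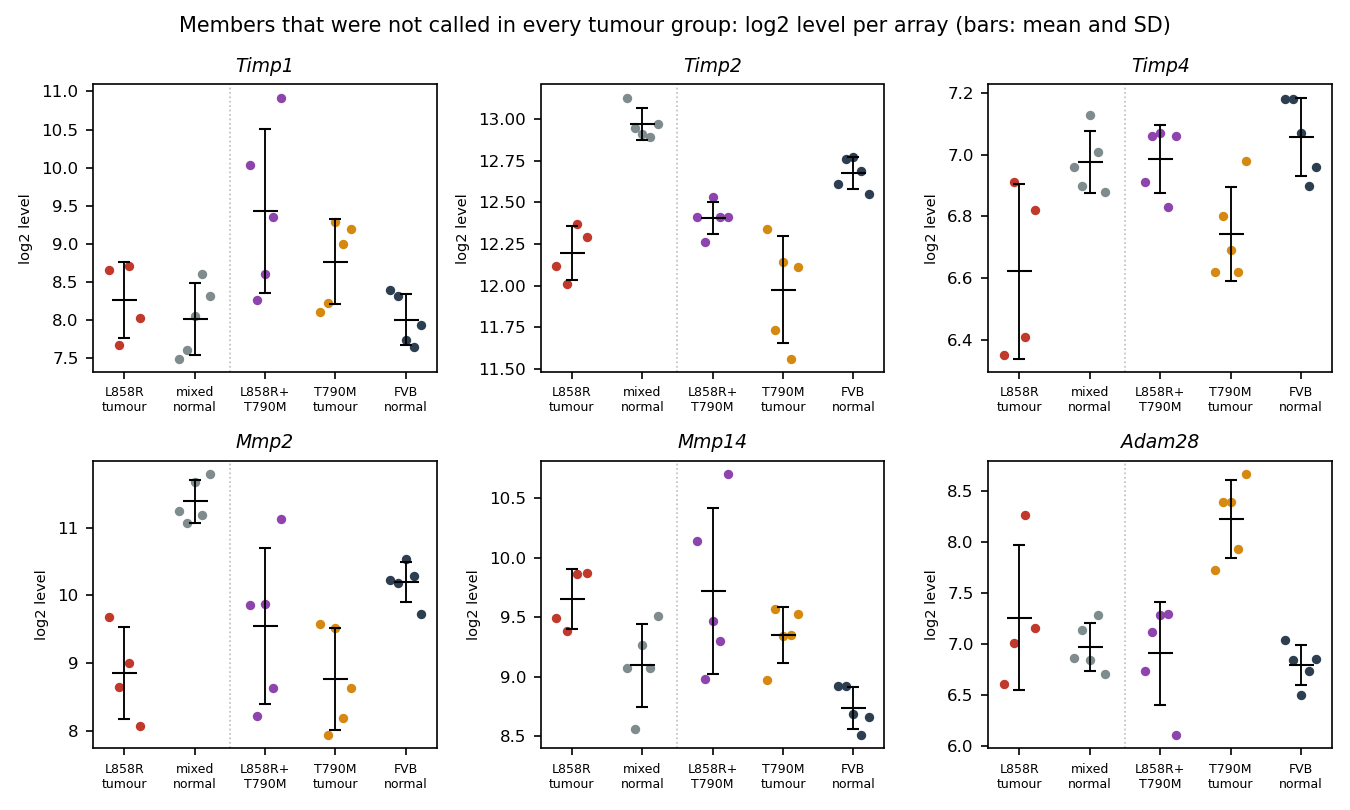
Log2 level (vertical axis) of Timp1, Timp2, Timp4, Mmp2, Mmp14 and Adam28 on each array (points), with the mean and SD of each group; the dotted line parts the FVB mixed groups from the FVB groups. The 2 highest L858R+T790M tumours reach 10.03 and 10.92 for Timp1, and all T790M tumours lie between 7.73 and 8.67 for Adam28, above the FVB normal lungs.

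Markers of the cells that are known to make many of these proteins fell in the tumours beside Timp3, Timp2, Mmp2, Adamts5 and Adam33. Of 10 fibroblast markers, 9, 7 and 7 were lower in L858R, L858R+T790M and T790M tumours and 0 were higher. Their mean log2 level per array ranged over 8.63 to 10.14 in L858R tumours, against 11.30 to 11.42 in FVB mixed normal lungs. It ranged over 8.61 to 9.91 in L858R+T790M and 8.43 to 10.15 in T790M tumours, against 10.61 to 11.22 in FVB normal lungs. Not every fibroblast marker shared this fall. Col1a1, a collagen gene, ranged over 9.01 to 11.02 in L858R+T790M and 8.55 to 10.53 in T790M tumours, against 8.72 to 9.60 in FVB normal lungs. Smooth muscle and pericyte markers (7, 6 and 5 of 7), endothelial markers (8, 8 and 7 of 8) and mesothelial markers (4, 2 and 4 of 4) were lower as well. The share called lower over all genes was 18.1%, 16.1% and 17.9%. The part of these cell types in the lower protease and inhibitor levels was not tested.

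Between tumour groups few members differed. L858R+T790M tumours differed from T790M tumours in 2 members, while 1.59% of all genes were called, 0.764% higher and 0.824% lower. Mmp19 was higher, at 7.98, 7.78, 8.10, 8.02 and 8.41 in L858R+T790M tumours, against 7.43, 7.42, 7.64, 7.16 and 7.58 in T790M tumours, a difference of 0.61 ± 0.12 (limma adjusted p = 0.0163). Adam28 was lower, at -1.32 ± 0.26 (limma adjusted p = 0.0118), with the levels given above. Neither group's arrays overlapped with the other's for these 2 genes, as for 2.26% of all genes. In a fit to these 2 groups alone neither was called (limma adjusted p = 0.239 for Mmp19 and 0.221 for Adam28).

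After the matching normal lungs had been subtracted from each, 0 members differed between L858R and L858R+T790M tumours by limma, where 0.0715% of all genes were called and 6 members had an unadjusted p under 0.05. The same comparison of L858R with T790M tumours called 1 member, with 0.418% of all genes called and 0.214% called lower. This was Mmp23, at -0.74 ± 0.16 (limma adjusted p = 0.0378), and the direct difference between these tumours was -0.17 (limma adjusted p = 0.596). Between FVB mixed and FVB normal lungs the same gene was the only member called, higher in FVB mixed by 0.57 ± 0.11 (limma adjusted p = 0.0159), with 1.04% of all genes called and 0.676% called higher. The first of these Mmp23 calls was lost when any 1 of 12 of the 19 arrays was left out (limma adjusted p up to 0.0829), and the second for 3 of the 10. With the median over its probe sets neither was called (limma adjusted p = 0.0643 and 0.0511). By construction the Mmp23 value between tumours includes this difference between the normal sets. Arrays of the 2 normal sets did not overlap for 7 of 65 members and 1892 of 18193 genes. Mmp2 was higher by 1.20 in FVB mixed normal lungs (limma adjusted p = 0.17), and was called in a fit to only the normal lungs (limma adjusted p = 0.00421). Its mean was 8.85 in L858R and 8.77 in T790M tumours, against 11.39 and 10.19 in their normal lungs. The larger Mmp2 fall in L858R tumours includes this difference.

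Other genes of matrix proteolysis moved as follows, with the same test and fit. Of 7 cathepsins, the lysosomal proteases, 6, 5 and 5 were higher in L858R, L858R+T790M and T790M tumours and 0 were lower, with medians of 1.01, 0.54 and 0.36. The share called higher over all genes was 23.3%, 20.2% and 21.9%. Ctsk, an elastin and collagen degrading cathepsin, rose by 2.30 ± 0.41, 1.66 ± 0.38 and 1.01 ± 0.38, and Ctsh, which takes part in the processing of surfactant protein B in type 2 cells, by 1.81 ± 0.10, 1.40 ± 0.10 and 1.01 ± 0.10 (limma adjusted p at most 0.0414 and 1.17e-07). Bmp1, the procollagen C-proteinase, rose by 1.73 ± 0.20, 2.01 ± 0.18 and 1.29 ± 0.18, while its relative Tll1 fell by 0.87 ± 0.14, 0.89 ± 0.14 and 0.55 ± 0.14 (limma adjusted p at most 1.29e-05 and 0.00269). Bsg, known as an inducer of MMPs, rose by 0.71 ± 0.10, 0.88 ± 0.09 and 0.62 ± 0.09 (limma adjusted p at most 1.49e-05).

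Proprotein convertases remove the inhibitory prodomains of membrane MMPs, ADAMs and ADAMTS proteases. Pcsk6 rose by 1.44 ± 0.36, 2.20 ± 0.34 and 2.06 ± 0.34, and Pcsk5 fell by 1.90 ± 0.30, 1.56 ± 0.28 and 1.48 ± 0.28 (limma adjusted p at most 0.00267 and 0.000247). Furin rose by 0.65 ± 0.13 in L858R and 0.61 ± 0.12 in L858R+T790M tumours (limma adjusted p = 0.000265 and 0.000321) and had 0.26 ± 0.12 in T790M tumours, not called (limma adjusted p = 0.091).

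A further 5 genes were the inhibitors Reck, A2m and Cst3 and the matrix proteins Spock2 and Sparc. Of these 5, 4, 3 and 4 were lower in L858R, L858R+T790M and T790M tumours and 0 were higher. The share called lower over all genes was 18.1%, 16.1% and 17.9%. Reck, a membrane-anchored inhibitor of MMPs and ADAM10, fell by 2.42 ± 0.37, 2.17 ± 0.35 and 2.13 ± 0.35, and Spock2, a testican proteoglycan of the matrix, fell by 2.24 ± 0.41, 1.78 ± 0.39 and 2.03 ± 0.39 (limma adjusted p at most 6.2e-05 and 0.000983). Cst3, an inhibitor of cathepsins, fell by 0.72 ± 0.17, 0.75 ± 0.16 and 0.53 ± 0.16 (limma adjusted p at most 0.0117). In the plasminogen system Plat, the tissue-type activator, fell by 0.97 ± 0.33, 1.84 ± 0.31 and 1.85 ± 0.31 (limma adjusted p at most 0.022), and Plau and Plaur were lower in T790M tumours, at -0.21 ± 0.07 and -0.47 ± 0.15 (limma adjusted p = 0.0233 and 0.0155). Of 6 ADAMTS-like genes, which encode relatives without a protease domain, 3, 3 and 4 were lower in the 3 groups and 1, Papln, was higher in L858R+T790M tumours, by 0.27 ± 0.10 (limma adjusted p = 0.0374).

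**Figure D5:**
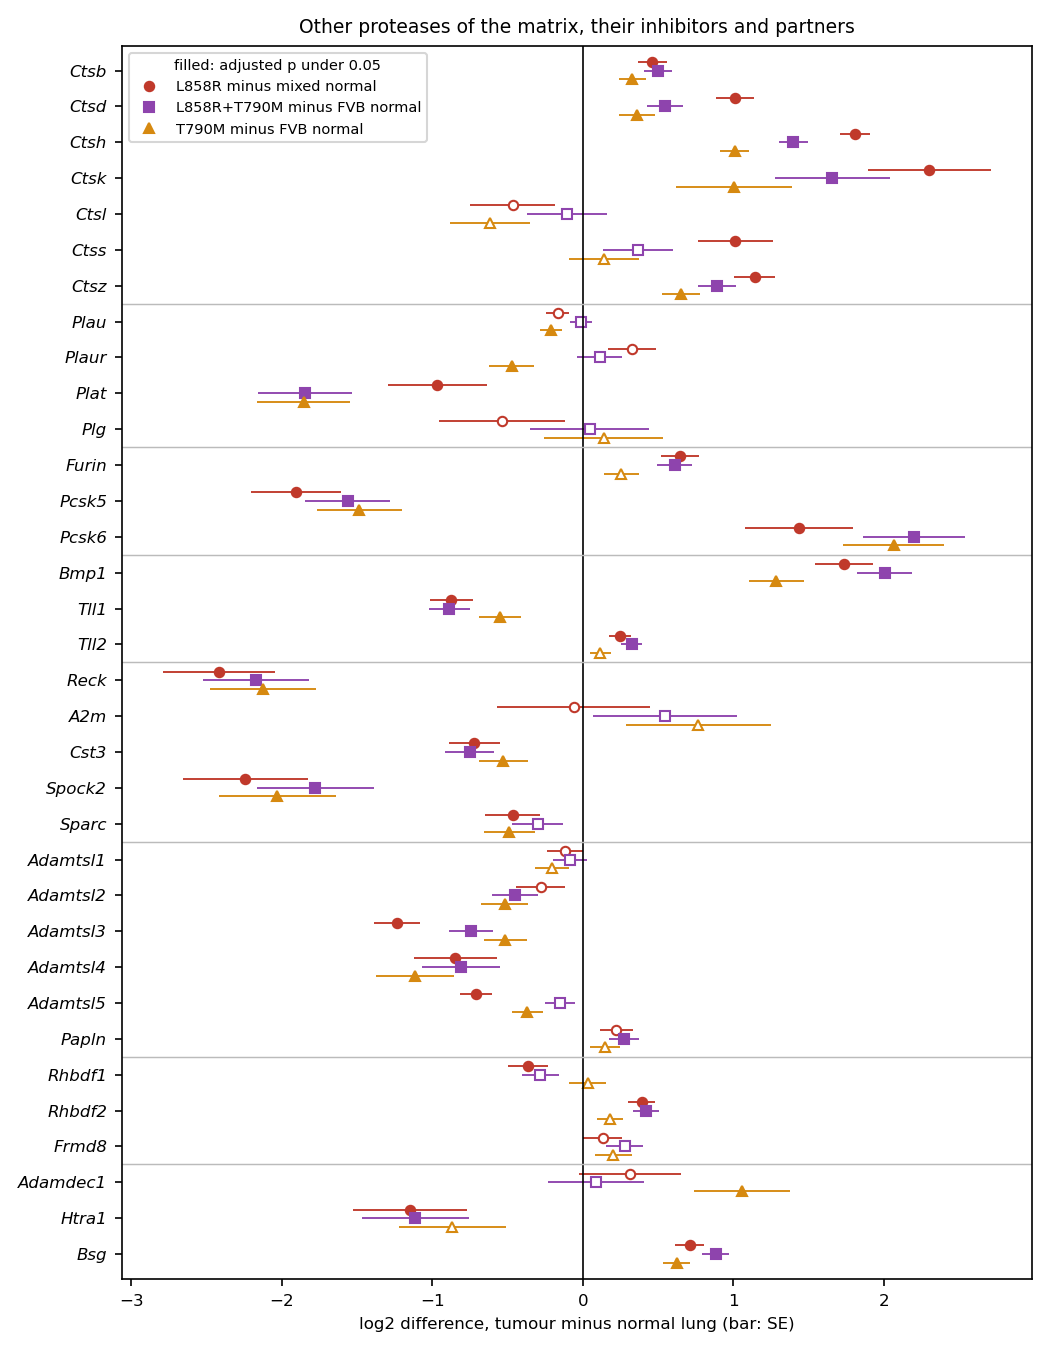
Log2 difference between tumour and normal lung (horizontal axis, bar: SE) for 34 genes outside the members. Their order is cathepsins, plasminogen system, proprotein convertases, astacins, inhibitors with Spock2 and Sparc, ADAMTS-like genes, ADAM17 partners and other genes, parted by lines. Filled symbols have a limma adjusted p under 0.05. Reck lies at -2.42, -2.17 and -2.13 and Pcsk6 at 1.44, 2.20 and 2.06.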

How the data were processed

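Total RNA from 24 mouse lung samples was hybridised to Affymetrix mouse expression arrays, 1 per sample. The deposited values are log2 summaries per probe set, for which the submitters' processing notes name RMA; neither its version nor its settings are stated there. No further normalization was applied, and the number of arrays per group, 4 or 5, limits the precision. Of 45101 probe sets, 64 were controls, 34945 were annotated to 1 gene, 932 to several and 9160 to none. Symbols were updated by Entrez identifier for 34741, with GRCm38 names, and 204 kept older ones. Each of 18193 genes was represented by its probe set with the highest mean.

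A linear model with a mean for each of the 5 groups was fitted (limma 3.58.1, R 4.3.3; eBayes with a trend, residual degrees of freedom 19), with two-sided p-values adjusted by Benjamini-Hochberg over all genes; the fit was also tested on simulated data. Tumours were compared with normal lungs of their strain label. Values per array are given for members called in a tumour comparison with a log2 difference of at least 1 in size, and for the TIMPs, Adam10, Adam17, Mmp2, Mmp9 and Mmp14 whatever their values; Mmp8, Mmp19 and Mmp23 were added after their values were seen. Members, lists, motifs and tests were chosen with earlier results of these data known. Alternatives were 2 scalings, the median over probe sets, leaving out dim genes, eBayes without a trend, array weights, a fit to only the groups compared, all 10 normal lungs as 1 group or the direct difference between tumours, the replicate number as a block, and leaving out each array; testing every probe set was added after seeing the data. ADAMs were not split by catalytic motif, since protein sequences were not used here.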

Additional observations from a re-analysis of the deposited data

Results flagged for a closer look

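Of 95 groups of 4 or 5 arrays examined for the members described per array, 5 held 1 array far from the others, and chance alone gives about 1 in 20. Adam19 was 10.90 in L858R replicate 1, below the other L858R tumours at 11.58 to 11.63. Adamts5 was 7.99 in L858R+T790M replicate 5, above the others of its group at 6.75 to 7.08. Adamts6 was 9.72 in T790M replicate 4, above the other T790M tumours at 7.0 to 7.43, and 6.05 in FVB normal replicate 4, below the other FVB normal lungs at 6.34 to 6.43. Mmp9 was 8.30 in L858R+T790M replicate 1, above the others of its group at 7.53 to 7.71.

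Members whose level or tumour effect differed between tumour groups were 3. Adam28 differed by -1.32 and Mmp19 by 0.61 between L858R+T790M and T790M tumours, and the Mmp23 effect differed by -0.74 between L858R and T790M tumours after the matching normal lungs were subtracted. The limma tests of these differences are given with the comparisons above.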

How the results depend on the processing

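Of 45 called differences of members described above, 439 values under settings other than leaving out an array gave 425 that kept the call, 14 that lost it and 0 that changed sign, and differences not called gained a call in 23 values. Calls lost included Mmp9 in L858R tumours under repeated quantile normalization and under array weights, Adam17 in L858R+T790M tumours with the median over probe sets, and Timp3 in L858R+T790M tumours and Adam28 and Mmp19 between the FVB tumour groups in a fit to only the groups compared. Differences near 0 that turned were Timp4 in L858R+T790M tumours, 0.01 under repeated quantile normalization, Adam17 in T790M tumours, just below 0.00 with the median over probe sets, and Adam28 in L858R tumours, -0.05 to 0.51 when each array was left out. For members described per array, 75 differences that were not called in the other 4 comparisons gave 701 values, of which 30 turned sign and 13 were called. The causes were not tested.

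Counts of called members moved by over 1.5 times as follows. Higher members in L858R tumours were 4 with the dimmest genes left out, which removes 30 members, and higher members in T790M tumours were 15 with array weights. Between L858R+T790M and T790M tumours, higher members were 2 with arrays centred on their medians, 2 with the dimmest genes left out, 0 with array weights and 0 in a fit to only these groups, and lower members were 2 and 0 under the last 2 of these. Between L858R and T790M effects, lower members were 0 with the median over probe sets and 0 with the replicate number as a block, and higher members were 3 in the direct difference. FVB mixed normal lungs had 6 higher and 7 lower members with array weights, and 6 and 3 in a fit to only the normal lungs. Leaving out each array gave 7 to 15 higher and 14 to 18 lower members in L858R, 11 to 13 and 8 to 11 in L858R+T790M, and 6 to 10 and 15 to 18 in T790M tumours. It gave 1 to 2 higher and 1 to 2 lower between L858R+T790M and T790M tumours, 0 to 2 lower between L858R and T790M effects, and 0 to 1 higher between the normal sets; in L858R tumours higher members were fewest without L858R replicate 3 and most without replicate 1, and lower members were fewest without replicate 1 and most without replicate 2.

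The median over probe sets moved called differences by over 1.5 times in Adamts5 in L858R+T790M tumours, to -1.05, in Adam28 in T790M tumours, to 0.91, in Mmp9 in L858R tumours, to -1.03, in Adam17 in L858R tumours, to 0.40, and in Timp4, to -0.58 in L858R and -0.66 in T790M tumours, all still called.

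Replicate numbers were not taken to pair the samples, since the labels give them no shared meaning and no 2 groups had all same-numbered arrays correlating over 0.1 in their deviations. Over all groups 11 of 46 such pairs did (range -0.284 to 0.44). Between L858R+T790M and T790M tumours 4 of 5 did (0.003 to 0.44), and 5 of the 10 arrays correlated best with their own number in the other group. Between FVB normal lungs and T790M tumours 3 of 5 did (-0.112 to 0.215), and 6 of the 10 arrays correlated best with their own number. With the replicate number as a block 2 member calls were lost and 4 gained. Lost were Mmp23 between L858R and T790M effects, at -0.74 (limma adjusted p = 0.0614), and Adam7 in L858R tumours (0.0539). Gained were Mmp14, Mmp8 and Adam5 in L858R tumours (0.0362, 0.0315 and 0.0293) and Adam26a in T790M tumours (0.0324).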

Other observations

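Adamts15 in the normal lungs fell into separate levels. It was 12.35 and 12.29 in replicates 3 and 5 of the FVB mixed normal lungs and 11.11 in replicate 4 of the FVB normal lungs, while the other FVB mixed lungs had 9.28, 8.93 and 8.60 and the other FVB lungs 8.82, 9.55, 8.72 and 8.38. Chosen after their values were seen, from a scan of all genes, Igf1 and Scrg1 were high in the same FVB mixed lungs. Igf1, a growth factor, was 10.60 and 10.74 in replicates 3 and 5, against 8.22, 8.44 and 8.61 in the other 3, and Scrg1 was 8.19 and 8.52, against 5.65, 5.59 and 5.58. FVB replicate 4, with 8.42 for Igf1 and 5.68 for Scrg1, did not share this.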
